A study of Oncorhynchus mykiss with 14 samples.

Results

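Fat cells (mature adipocytes, which store lipid) from the subcutaneous fat (SAT, under the skin) and the visceral fat (VAT, around the organs of the belly) of rainbow trout were compared in their microRNA (miRNA) profiles. Of 899 entries in the table of counts, 307 were above 0 in at least 4 of the 9 libraries of these depots. Entries with identical counts in all 9 libraries were read as 1 miRNA, which left 266 distinct miRNAs. Of these, 191 carried an Atlantic salmon name and 75 were predicted from the reads and carried only a number. The 592 entries left out held at most 1.03% of the counts of a library.

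The fish were adult rainbow trout without any treatment, labelled as controls, held at 15 ± 1 °C under a cycle of 12 h light and 12 h dark on a commercial diet and fasted for 24 h before sampling. Adipocytes were freed from each dissected depot by mechanical digestion and collagenase type II, and their RNA was extracted with TRIzol. SAT had 5 libraries (replicates 1 to 5) and VAT had 4 (replicates 1, 3, 4 and 5), so 9 of the 14 samples of the study were used, and 5 samples of intramuscular fat served only in 1 alternative fit. The labels do not state that samples of a depot came from separate fish, so a p-value here reflects only sample-to-sample spread, which may be technical.

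A miRNA is a short RNA that guides an Argonaute protein to complementary sites in messenger RNAs, which lowers their stability or translation. Each is cut from a hairpin precursor with a 5p and a 3p arm, and related miRNAs form families that share a number and often the bases that pair with targets. Many miRNAs are made mainly in 1 cell type or body region, and in mammals several act on the formation, lipid storage or heat production of fat cells. Salmonid genomes carry many near-identical copies of a miRNA gene, so a name can stand for several loci. Here 34 sets of entries, 75 entries in all, had identical counts, and in 13 sets these were both arms of a precursor, so that the arm is uncertain. A further 12 sets with 25 of the distinct miRNAs differed in each library by at most 2 reads or 10%, whichever was larger, and with these joined 253 miRNAs were left.

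Summed counts over all entries ran from 2060776 to 4042846 in SAT and from 4525742 to 11076843 in VAT. Of the 266 miRNAs, 167 were above 0 in all 9 libraries, 2 only in SAT and 1 only in VAT. Those found in 1 depot only passed the filter through that depot alone, so their numbers are shaped by the filter. VAT 4 stood apart from the other libraries: it had the most table entries above 0 (435) and the fewest of the 266 miRNAs above 0 (212). Some zeros lay beyond counting error, that is, a miRNA was listed at 0 where the lowest share above 0 in its depot would give at least 20 reads at that depth. This held for 55 miRNAs (18 named), of which 30 in VAT 4, so such values are described as listed at 0. A list of muscle miRNAs took 2.51 to 8.99% of the merged counts in SAT and 0.0678 to 3.37% in VAT. Merged counts are those over all table entries, with identical ones merged only among the entries kept. The files count miRNAs only, so the adipocyte label was not checked against the messenger RNAs of fat cells. In such bulk samples, fewer cells of a type and less RNA per cell cannot be told apart.

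The question of the comparison was which miRNAs differ between fat of these sites. Levels are CPM (counts scaled to a common library total) after TMM scaling, which sets the libraries on 1 scale by the bulk of their miRNAs. Log2 fold changes are SAT minus VAT with their standard error (SE), and a difference is called when its p-value, adjusted by the Benjamini-Hochberg method over all 266 miRNAs (edgeR quasi-likelihood test), is under 0.05. Of 266 miRNAs 33 (12.4%) were called, 17 (6.39%) higher and 16 (6.02%) lower in SAT, and 65 had an unadjusted p under 0.05. With near-identical miRNAs joined 32 were called. In 51 of the 266 (19.2%) no library of one depot reached those of the other, 33 with SAT above and 18 with VAT above, and 27 of the 33 called were among them. Of the 266, 111 had a positive log2 fold change. The median log2 fold change over all 266 was -0.31, the same with the 3 miRNAs that were at 0 throughout a depot set to their bounds. With library totals as the only scaling that median was -0.10 and 18 miRNAs were higher and 11 lower.

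By level, 5 of the 55 named miRNAs at a mean of 1000 CPM or more were higher in SAT and 2 lower. Between 50 and 1000 CPM, 5 of 63 were higher and 8 lower. Under 50 CPM, 5 of 73 were higher and 3 lower. Of the 10 most abundant named miRNAs only miR-146a was called. Without VAT 4 the calls rose to 62 of 266 (23.3%), which held all 33 and 29 others. Without any 1 of the remaining libraries they were 15 (SAT 3 or SAT 5), 16 (SAT 2), 17 (SAT 1), 21 (SAT 4), 25 (VAT 1), 26 (VAT 5) and 29 (VAT 3). Of the 33 calls 14 passed without each library in turn. The plotted fold changes of the 3 miRNAs at 0 throughout a depot depend on a prior count added in the fit, and their bounds are given in the text.

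**Figure D1:**
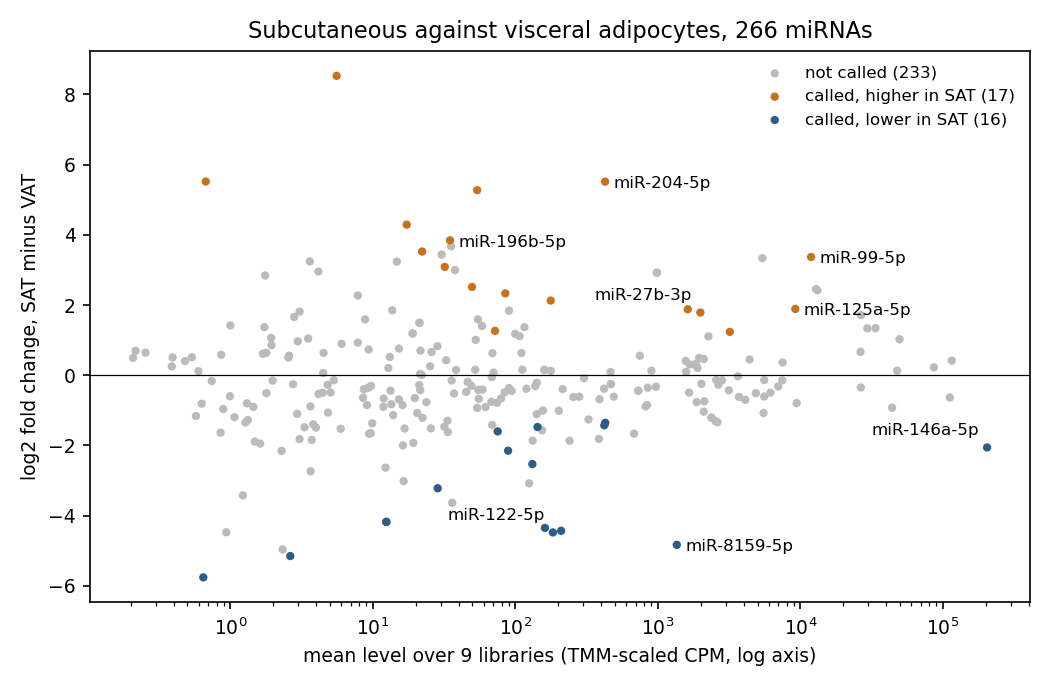
Mean level over the 9 libraries (TMM-scaled CPM, log axis) against the log2 fold change (SAT minus VAT) of 266 miRNAs, each a point, coloured by its call. The 17 called higher and the 16 called lower lie at every level, with miR-99-5p and miR-146a-5p among the abundant ones and miR-204-5p and miR-122-5p at moderate levels.

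miR-99 and miR-125 were higher in SAT. These miRNAs are transcribed with let-7 from shared clusters in animals, and in mammals miR-99 targets the growth kinase mTOR. miR-99-5p held 17679.6, 22130.1, 22511, 19531 and 17333 CPM in SAT 1 to 5 and 2021, 1580.1, 2437 and 1646 CPM in VAT 1, 3, 4 and 5. Every SAT library lay far above every VAT library, and the values within each depot were close together. The log2 fold change was 3.37 ± 0.27 (edgeR adjusted p = 9.8e-05), the smallest p of the 266 miRNAs.

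miR-125a-5p held 14564, 14897, 15053, 12433 and 11132 CPM in SAT 1 to 5 and 4874, 4028, 3843 and 1971 CPM in VAT 1, 3, 4 and 5. The depots did not overlap, and VAT 5 was the lowest. It was higher in SAT by 1.89 ± 0.31 (edgeR adjusted p = 0.0042). miR-125b-5p held 4290.0 ± 796 CPM in SAT (SD, n = 5) and 1823 ± 609 CPM in VAT (n = 4), without overlap, and was higher by 1.23 ± 0.32 (adjusted p = 0.034). Its call was lost without SAT 1, 2, 3, 4 or 5 or VAT 1 (adjusted p = 0.0610 to 0.105).

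Their relative miR-100a-5p was the most abundant miRNA in SAT 1 to 4 and in VAT 4. It held 109655, 135850.0, 148263, 130237 and 124551 CPM in SAT 1 to 5 and 88135, 33517, 237593 and 29694 CPM in VAT 1, 3, 4 and 5. VAT 4 was above all 5 SAT libraries and the other VAT libraries were below them, and the difference was not called (0.42 ± 0.59, edgeR adjusted p = 0.7). Without VAT 4 it was 1.36 and was called (adjusted p = 0.041). The opposite arm of one precursor, miR-125a-2-3p, did likewise, with 1.01 in all libraries (adjusted p = 0.38) and 2.03 without VAT 4 (adjusted p = 0.0096). Of the 5 members of miR-99, miR-100 and miR-125, 3 were called higher (6.39% over all 266 miRNAs), all 5 were positive and the median was 1.23, against -0.31 over all miRNAs.

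The let-7 family, which drives cells out of immature states in animals, was mixed. Of its 10 members 1 was called (12.4% over all 266 miRNAs), 4 were positive and the median was -0.09, which turned positive with library totals (0.11), with totals that omit muscle miRNAs (0.03), in limma (0.21) and without VAT 4 (0.11). let-7c-5p, the member that was called, held 2499.6, 2610.4, 2416, 2431 and 2008 CPM in SAT 1 to 5 and 435, 375.1, 1429 and 363.1 CPM in VAT 1, 3, 4 and 5. The depots did not overlap, but VAT 4 stood far above the other VAT libraries. It was higher in SAT by 1.88 ± 0.46 (edgeR adjusted p = 0.031), a call lost without any 1 library other than VAT 4 (adjusted p = 0.0503 to 0.0799).

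let-7b-5p had the same shape, with 3279, 2603, 2660.4, 2904 and 3388 CPM in SAT 1 to 5 and 817, 926, 3017 and 752 CPM in VAT 1, 3, 4 and 5. VAT 4 lay within the SAT range, and the difference of 1.11 ± 0.45 was not called (edgeR adjusted p = 0.16). Without VAT 4 it was 1.83 (adjusted p = 0.00021). For let-7d-5p VAT 4 decided the sign: it held 8208 CPM there and 1414 to 2046 CPM in SAT, with 639 to 1164 CPM in the other VAT libraries. Its log2 fold change was -0.74 ± 0.71 with all libraries (adjusted p = 0.56) and 0.85 without VAT 4 (adjusted p = 0.039). The abundant let-7a-5p (0.13 ± 0.37, adjusted p = 0.84) and let-7e-5p (-0.93 ± 0.44, adjusted p = 0.23) were not called.

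miR-204-5p had the largest fold change among named miRNAs that were above 0 in every library. In mouse and human stromal cells it favours fat over bone formation by repressing the bone factor Runx2. It held 1106, 359, 482, 766 and 1055 CPM in SAT 1 to 5 and 13.7, 33.9, 8.63 and 9.73 CPM in VAT 1, 3, 4 and 5. The depots lay far apart, although SAT libraries varied among themselves, with SAT 1 and SAT 5 the highest. The log2 fold change was 5.51 ± 0.65 (edgeR adjusted p = 0.00063).

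The miRNAs of the Hox clusters lie between genes that set position along the body axis and target Hox messenger RNAs. miR-196b-5p held 70.7, 60.4, 69.0, 53.3 and 43.1 CPM in SAT 1 to 5 and 4.63, 5.48, 3.38 and 2.97 CPM in VAT 1, 3, 4 and 5. Every SAT library was above every VAT library, by 3.84 ± 0.43 (edgeR adjusted p = 0.00055). miR-196a-5p, which promotes browning of white fat in mice, held 106.6, 102.9, 90.6, 102 and 74.6 CPM in SAT 1 to 5 and 0, 4.85, 0 and 4.81 CPM in VAT 1, 3, 4 and 5. It was thus listed at 0 in VAT 1 and VAT 4 and low in the other VAT libraries. Its difference was 5.27 ± 1.36 (adjusted p = 0.034), a call lost without SAT 1, 2, 3, 4 or 5 or VAT 3 or 5 (adjusted p = 0.0559 to 0.0799).

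miR-10b-5p, of the same clusters, held 38906, 35555, 37659, 40220.5 and 39946 CPM in SAT 1 to 5 and 4163, 5608, 33960.1 and 3198 CPM in VAT 1, 3, 4 and 5. The 5 SAT libraries and VAT 4 were alike in level, and VAT 1, 3 and 5 were lower. The difference was 1.71 ± 0.70 with all libraries (edgeR adjusted p = 0.16) and 3.15 without VAT 4 (adjusted p = 5.1e-05), the smallest adjusted p among the 29 miRNAs called only without VAT 4. miR-10d-5p moved from 0.36 ± 0.71 (adjusted p = 0.78) to 1.97 without VAT 4 (adjusted p = 0.00021), and VAT 4 at 19498 CPM was above every SAT library. miR-10a-5p was not called (-0.50 ± 0.52, adjusted p = 0.57). Of the 5 Hox-cluster miRNAs 2 were called higher (6.39% over all 266 miRNAs) and none lower, with a median of 1.71. Without VAT 4, where 32 of all 266 miRNAs were called higher, 4 of them were and their median was 3.15.

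**Figure D2:**
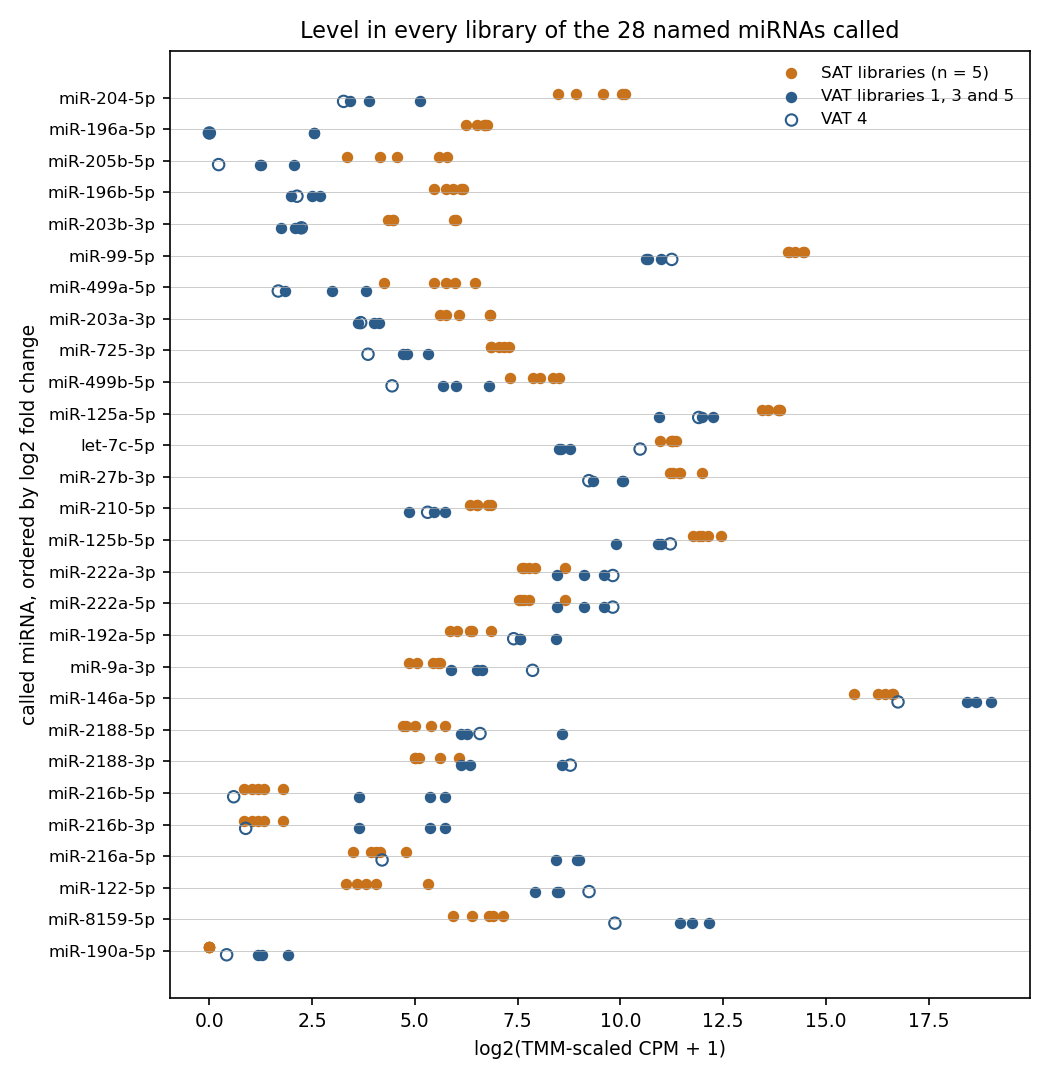
Level of the 28 named miRNAs called, as log2(TMM-scaled CPM + 1), in each of the 5 SAT libraries (orange), in VAT 1, 3 and 5 (filled blue) and in VAT 4 (open blue), from the most higher in SAT at the top to the most lower at the bottom. miR-99-5p, miR-204-5p and miR-8159-5p show wide gaps between the depots, and for miR-216a-5p and miR-216b VAT 4 lies at the level of the SAT libraries.

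The miRNAs of skin and other epithelia were partly higher in SAT. miR-203, which represses the epidermal stem cell factor p63 in mouse skin, was higher in both its forms. miR-203a-3p held 66.0, 47.6, 53.2, 113 and 112 CPM in SAT 1 to 5 and 16.5, 15.2, 11.8 and 11.4 CPM in VAT 1, 3, 4 and 5. SAT 4 and SAT 5 were above SAT 1 to 3, and VAT was lower throughout. It was higher by 2.51 ± 0.43 and miR-203b-3p, with 19.4 to 63.4 CPM in SAT and 2.36 to 3.72 CPM in VAT, by 3.52 ± 0.61 (edgeR adjusted p = 0.0047 for each).

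miR-205b-5p, of an epithelial family, held 46.9, 9.21, 16.9, 22.6 and 53.9 CPM in SAT 1 to 5 and 1.39, 3.16, 0.169 and 1.33 CPM in VAT 1, 3, 4 and 5. SAT 1 and SAT 5 were highest and VAT 4 was near 0. The difference was 4.29 ± 0.93 (edgeR adjusted p = 0.018), lost without SAT 1, SAT 5 or VAT 5 (adjusted p = 0.05003 to 0.0532). The related miR-205a-5p (0.16 ± 0.54, adjusted p = 0.86) and the epithelial miR-200a-3p (0.15 ± 0.56, adjusted p = 0.87) and miR-200b-3p (-0.67 ± 0.49, adjusted p = 0.45) were not called. Of 9 epithelial miRNAs 3 were called higher, against 6.39% over all 266 miRNAs, and 7 were positive, with a median of 0.15. Together they took 0.0376 to 0.0994% of counts in SAT and 0.0345 to 0.0684% in VAT, and miR-141 had no entry. Their part in the other differences was not tested.

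Muscle miRNAs were positive in all 8 members, of which 2 were called and 5 did not overlap, against 12.4% and 19.2% over all 266 miRNAs, with a median of 2.92. With near-identical entries of miR-1 and of miR-133a joined 6 miRNAs were left, and both miR-133a entries are among the 5. miR-499, which lies in a myosin gene of slow muscle and heart, was higher in SAT in both forms. miR-499b-5p held 233, 328, 364, 159 and 263 CPM in SAT 1 to 5 and 63.3, 112, 20.8 and 50.9 CPM in VAT 1, 3, 4 and 5, without overlap. It was higher by 2.13 ± 0.50 and miR-499a-5p, with 18.03 to 87.0 CPM in SAT and 2.20 to 13.1 CPM in VAT, by 3.09 ± 0.73 (edgeR adjusted p = 0.028 for each). Without SAT 1, 2, 3 or 5 or VAT 1 or 5 neither was called (adjusted p = 0.0548 to 0.103 for miR-499b and 0.0548 to 0.0775 for miR-499a), and in the fit of all 14 libraries miR-499b was not (adjusted p = 0.051).

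miR-206-3p, made in skeletal muscle, held 11199, 7650.4, 14276, 4199.7 and 7732 CPM in SAT 1 to 5 and 309.6, 3018, 123 and 124.8 CPM in VAT 1, 3, 4 and 5. All SAT libraries were above all VAT libraries, but VAT 3 was far above VAT 1, 4 and 5, and the difference of 3.33 ± 1.06 was not called (edgeR adjusted p = 0.072). miR-133a-3p (2.92 ± 0.94, adjusted p = 0.074) and miR-1-3p (2.42 ± 1.14, adjusted p = 0.23) were not called either, and VAT 3 held 13677 CPM of miR-1-3p against 273 to 1049 CPM in the other VAT libraries. The summed share of the list was 5.72 ± 2.48% in SAT and 0.939 ± 1.62% in VAT. The test used the log2 of each library's percent, which averaged 2.39 in SAT and -1.93 in VAT. This difference of 4.32 is larger than the log2 ratio of the mean percents (two-sided exact permutation test, p = 0.016, adjusted over 5 library values p = 0.02). SAT 4 at 2.51% was below VAT 3 at 3.37%, so the depots overlapped. Without SAT 1, 2, 3 or 5 the adjusted p was 0.071. With totals that omit muscle miRNAs, 25 of the remaining 258 miRNAs were called, all among the 33, and the part of muscle RNA in these was not tested further.

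Of the 3 miRNAs of liver and gut, 2 were lower in SAT (6.02% over all 266 miRNAs). miR-122-5p, the main miRNA of vertebrate liver, held 38.7, 8.96, 11.2, 13.0 and 15.7 CPM in SAT 1 to 5 and 352, 242, 603 and 364.9 CPM in VAT 1, 3, 4 and 5. All VAT libraries were high, VAT 4 the most, and SAT 1 was the highest of a low group. The difference was -4.48 ± 0.54 (edgeR adjusted p = 0.00066). miR-192a-5p, of gut, liver and kidney, held 83.2, 57.1, 64.1, 79.8 and 115 CPM in SAT 1 to 5 and 344, 189, 169 and 186.6 CPM in VAT 1, 3, 4 and 5, without overlap, and was lower in SAT (-1.48 ± 0.35, adjusted p = 0.028). Its call was lost without SAT 1, 2, 3 or 4 or VAT 1 (adjusted p = 0.05003 to 0.0799). Its cluster partner miR-194a-5p held 8.96 to 18.8 CPM in SAT and 14.2 to 73.2 CPM in VAT, with VAT 4 the lowest of VAT, and was not called among the 266 miRNAs (-1.51 ± 0.52, adjusted p = 0.096). It was called without VAT 4 (-1.80, adjusted p = 0.014) and in the fit of family sums, where it is the single member of its family (-1.80 ± 0.53, adjusted p = 0.032). The 3 miRNAs together took 0.00816 to 0.0172% of counts in SAT and 0.0507 to 0.0729% in VAT, and miR-215 had no entry.

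The pancreatic miR-216 was lower in SAT in each form. miR-216a-5p held 15.6, 10.2, 14.3, 16.9 and 26.6 CPM in SAT 1 to 5 and 510.4, 344, 17.4 and 495 CPM in VAT 1, 3, 4 and 5. VAT 1, 3 and 5 were far above SAT, whereas VAT 4 lay within the SAT range, so the depots overlapped. The difference was -4.35 ± 0.81 (edgeR adjusted p = 0.0072). Both arms of miR-216b carried almost the same counts, with 0.781, 1.28, 1.04, 1.53 and 2.44 CPM in SAT 1 to 5 and 40.3, 52.3, 0.507 and 11.6 CPM in VAT 1, 3, 4 and 5 for the 5p arm, and were lower, with log2 fold changes of -4.18 ± 1.06 and -4.18 ± 1.01 (adjusted p = 0.034 and 0.029). VAT 4 was again at the SAT level, and for the 5p arm it was the lowest of all 9 libraries. These 2 calls were lost without SAT 1, 2, 3, 4 or 5 or VAT 1 or 3 (adjusted p = 0.0610 to 0.0900 and 0.0548 to 0.0799) and in limma.

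miR-375-3p, of the pancreatic islets, held 25.1 to 59.1 CPM in SAT and 28.3 to 213 CPM in VAT, with VAT 4 the highest, and was not called (-0.91 ± 0.61, edgeR adjusted p = 0.41). The near-identical arms of miR-216b count as 2 of the 4 pancreatic miRNAs, and with these joined 3 were left. Of the 4, 3 were called lower (6.02% over all 266 miRNAs), both miR-216b arms among them. Together they took 0.00412 to 0.00898% of counts in SAT and 0.0215 to 0.0532% in VAT, and miR-217 had no entry. In these fish pancreatic tissue lies scattered in the visceral fat as background anatomy, and the part of liver, gut or pancreas RNA in these differences was not tested.

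miR-8159-5p, for which no role is given here, was the most lower in SAT among miRNAs at 1000 CPM or more. It held 139.8, 59.6, 83.6, 119 and 110.1 CPM in SAT 1 to 5 and 4564, 3409, 934 and 2785 CPM in VAT 1, 3, 4 and 5. Every VAT library was far above SAT, VAT 4 the least. The difference was -4.83 ± 0.50 (edgeR adjusted p = 0.00046). Both arms of miR-2188 were lower in SAT, the 3p arm with -2.53 ± 0.62 and the 5p arm with -2.15 ± 0.58 (adjusted p = 0.031 and 0.04). The 3p arm held 66.8, 33.3, 31.1, 48.3 and 30.9 CPM in SAT 1 to 5 and 68.6, 385, 439 and 80.6 CPM in VAT 1, 3, 4 and 5. VAT 3 and VAT 4 were high and VAT 1 was just above the highest SAT library. For the 5p arm VAT 4 held 95.0 CPM, so VAT 3 alone was high. Both arms had identical counts in SAT 5 and VAT 3, so the arm of those reads is uncertain.

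The miR-2188 calls were lost without SAT 1, 2, 3, 4 or 5 or VAT 3 (edgeR adjusted p = 0.05003 to 0.0821 for 3p and 0.0627 to 0.110 for 5p), with library totals (0.06 and 0.1) and in limma, and the 5p call also with totals that omit muscle miRNAs (0.055). Without VAT 3 the 5p arm was -1.18. miR-190a-5p, which lies in a talin gene in human, was listed at 0 in all SAT libraries and so passed the filter through VAT alone. Its 34 reads over VAT made it at least 6.66-fold lower in SAT against a floor of 3 reads over the group. Its call (adjusted p = 0.04) was lost without any 1 library other than VAT 4 (adjusted p = 0.0673 to 0.0928) and with totals that omit muscle miRNAs (0.056).

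miR-9, a miRNA of neurons, was lower in SAT in 1 of its 3 entries. miR-9a-3p held 46.1, 42.7, 48.3, 32.2 and 27.9 CPM in SAT 1 to 5 and 89.9, 99.1, 232 and 58.0 CPM in VAT 1, 3, 4 and 5, without overlap, with a difference of -1.60 ± 0.45 (edgeR adjusted p = 0.045). That call was lost without SAT 1, 2, 3, 4 or 5 or VAT 1 or 3 (adjusted p = 0.0548 to 0.130), with library totals (0.11), with totals that omit muscle miRNAs (0.091), in limma and in the fit of all 14 libraries (0.051). miR-9b-3p had the same counts in the 9 libraries except VAT 3, where it held 41.1 CPM against 99.1 CPM for miR-9a-3p. For miR-9b-3p VAT 3 lay within the SAT range, and it was not called (-1.42 ± 0.52, edgeR adjusted p = 0.12). miR-9a-5p was listed at 0 in SAT 1, 2 and 3 and held 41.3 to 102 CPM in VAT, and was not called (-3.64 ± 1.58, adjusted p = 0.19). The neuronal miR-128-3p (0.49 ± 0.23, adjusted p = 0.22) was not called. Of 7 neuronal miRNAs 1 was called (12.4% over all 266 miRNAs), 3 were positive and the median was -0.36, which was 0.35 over the members above 0 in all libraries. They took 0.676 to 1.21% of counts in SAT and 0.439 to 0.717% in VAT, and miR-124, best known of neuronal miRNAs, had no entry.

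The linked miR-221 and miR-222, which repress the cell cycle inhibitor p27 in human cells, were negative in all 4 members, with a median of -1.39. Both arms of miR-222a were called lower, 2 of the 4 (6.02% over all 266 miRNAs). Their counts were identical in SAT 1 and all VAT libraries, so the 2 calls are close to 1 observation. The 5p entry held 405, 201, 184, 218.6 and 191.9 CPM in SAT 1 to 5 and 349, 549.7, 901 and 783 CPM in VAT 1, 3, 4 and 5 and the 3p entry the same counts in VAT. SAT 1 lay above VAT 1, so the depots overlapped. The differences were -1.43 ± 0.38 and -1.36 ± 0.37 (edgeR adjusted p = 0.038 and 0.04). They were lost without SAT 2, 3, 4 or 5 or VAT 5 (adjusted p = 0.0503 to 0.110 and 0.0525 to 0.110), with library totals (0.14 and 0.14), with totals that omit muscle miRNAs (0.063 and 0.064), in the fit of all 14 libraries (0.11 and 0.13) and in limma. miR-221-5p held 79.6 to 137 CPM in SAT and 137 to 247 CPM in VAT and missed the threshold (-1.005 ± 0.31, adjusted p = 0.065), which it passed without VAT 4 (-0.94, adjusted p = 0.042).

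miR-146a-5p, which in mammals is a brake on NF-kB signalling, was the most abundant miRNA on average and was lower in SAT. It held 53164, 101738, 88681, 100148 and 79426 CPM in SAT 1 to 5 and 529012, 415553, 110844 and 354643 CPM in VAT 1, 3, 4 and 5. With TMM scaling over miRNAs the depots did not overlap, but VAT 4 was close to the highest SAT library. In the family sum of miR-146-5p, which has its own scaling and is given below, the depots overlapped. The difference of miR-146a-5p was -2.06 ± 0.44 (edgeR adjusted p = 0.017), lost without SAT 1, 3 or 5 (adjusted p = 0.05003 to 0.0571). miR-146d-5p, a second form, overlapped between the depots (763 to 1861 CPM in SAT and 269.6 to 6313 CPM in VAT) and was not called (-0.77 ± 0.72, adjusted p = 0.55).

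miR-21b-5p was led by VAT 5, with 383227 CPM against 42124 to 69661 CPM in the other VAT libraries, and was not called (-0.63 ± 0.65, edgeR adjusted p = 0.57). Of the 8 miRNAs induced in inflammation 1 was called lower (6.02% over all 266 miRNAs) and 2 were positive, with a median of -0.70 that turned positive without VAT 5 (0.14) and in limma (0.02). The 3 miRNAs of white blood cells were negative and none was called. miR-155-5p, of activated immune cells, held 1.63 to 5.75 CPM in SAT and 3.71 to 66.6 CPM in VAT, with VAT 5 the highest (-2.63 ± 0.88, adjusted p = 0.088). miR-142b-3p, of blood cells, was listed at 0 in VAT 4 and held 110.5 to 755 CPM in the other VAT libraries against 20.2 to 40.7 CPM in SAT. It was not called with all libraries (-3.08 ± 1.39, adjusted p = 0.21) and was called without VAT 4 (-3.50, adjusted p = 0.0095). White blood cell miRNAs took 0.0242 to 0.0645% of counts in SAT and 0.0266 to 0.114% in VAT, and miR-223 had no entry. Their part in the miR-146a difference was not tested.

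The endothelial miR-126-3p held 49578 to 85816 CPM in SAT and 13888 to 53964 CPM in VAT and was not called (1.02 ± 0.44, edgeR adjusted p = 0.19). Of 6 miRNAs of stroma and smooth muscle none was called and 2 were positive. These were both arms of miR-199a, with 1.34 ± 0.42 for 3p (adjusted p = 0.072) and 1.34 ± 0.45 for 5p (adjusted p = 0.088), while miR-143-3p was -0.79 ± 0.35 (adjusted p = 0.2). The median of the 6 was -0.44, which was 0.79 without VAT 4 and 0.18 in limma. In limma 2 of the 6 were called higher, against 27 over all 266 miRNAs. Both arms of miR-214 carried near-identical counts, and with these joined 5 miRNAs were left. The list took 7.91 to 11.2% of counts in SAT and 2.43 to 6.60% in VAT. Of red blood cells 1 member, miR-144, was tested and not called (-0.40 ± 1.08, adjusted p = 0.84), and miR-451 had no entry. The sensory cluster of miR-96, miR-182 and miR-183 had no member.

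Of the miRNAs described as promoting fat cell formation in mammals, 2 of 13 were called against 12.4% over all 266 miRNAs, both higher in SAT, and the median was -0.65 (0.14 without VAT 4). These were miR-204-5p and miR-210-5p, an arm of a precursor induced by low oxygen. miR-210-5p held 109.7, 80.4, 90.1, 90.5 and 115 CPM in SAT 1 to 5 and 52.1, 27.8, 38.7 and 43.1 CPM in VAT 1, 3, 4 and 5, without overlap. It was higher by 1.26 ± 0.32 (edgeR adjusted p = 0.034), a call lost without any 1 of SAT 1 to 5 (adjusted p = 0.0703 to 0.106) and in the fit of all 14 libraries (0.076). The 7 miR-30 entries in this list were all negative and none was called, with a median of -1.21, which was 0.14 without VAT 4. Both arms of miR-30c and of miR-30d carried near-identical counts, and with these joined 5 miRNAs were left. Over the 5 entries of the 5p arm the median was -0.51. miR-30d-5p held 1199 to 2019 CPM in SAT and 1104 to 11086 CPM in VAT, where VAT 4 was the highest (-1.32 ± 0.68, adjusted p = 0.28). miR-103-3p (-0.37 ± 0.47, adjusted p = 0.66) and miR-107-3p (-0.65 ± 1.07, adjusted p = 0.74), which act on insulin sensitivity in mice, were not called.

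Of 15 miRNAs described as restraining fat cell formation, 1 was called higher and 2 lower, against 6.39% and 6.02% over all 266 miRNAs, with a median of -0.61. miR-27b-3p, which lowers the fat cell regulator PPAR gamma in mammals, held 2350.4, 2485, 2776, 2821 and 4068 CPM in SAT 1 to 5 and 1069, 1054, 601 and 640.0 CPM in VAT 1, 3, 4 and 5. SAT 5 was the highest and the depots did not overlap. It was higher by 1.79 ± 0.31 (edgeR adjusted p = 0.0049). Its relatives miR-27c-3p (-0.50 ± 0.33, adjusted p = 0.4) and miR-27d (0.30 ± 0.39, adjusted p = 0.66) were not called, and miR-27a-2-3p was listed at 0 in VAT 4 (1.18 ± 1.15, adjusted p = 0.57). The 2 lower ones were the arms of miR-222a, which share most of their counts and are close to 1 observation.

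The brown fat list had 2 of 7 called against 12.4% over all 266 miRNAs, both miR-196 forms, with a median of 0.51. Its other members miR-193 (0.66 ± 0.56, edgeR adjusted p = 0.52) and miR-455 (0.16 ± 0.29, adjusted p = 0.77) were not called, and miR-365-2-3p was listed at 0 in SAT 2, SAT 5 and VAT 3 although the near copy miR-365-3p held 3429 CPM or more there. Of 14 miRNAs of lipid and insulin metabolism only miR-122 was called (12.4% over all 266 miRNAs), with a median of -0.53. Among these, the abundant miR-22a-3p held 61696 to 115079 CPM in SAT and 36712 to 115792 CPM in VAT (0.22 ± 0.37, adjusted p = 0.75). miR-33a-5p, which lies in the gene of a sterol regulator and limits cholesterol export in mammals, held at most 1.27 CPM and was not called (-1.16 ± 1.21, adjusted p = 0.57). The fish miRNA miR-725-3p, outside these lists and with no role given here, held 132.4, 156, 141.99, 115 and 115 CPM in SAT 1 to 5 and 26.9, 39.0, 13.5 and 25.4 CPM in VAT 1, 3, 4 and 5, without overlap, and was higher in SAT by 2.33 ± 0.38 (adjusted p = 0.0042).

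The miR-17-92 family, which drives proliferation in mammals, was negative in all 13 members with all libraries. None of them was called, and the median was -1.08 (-0.79 without VAT 4). Over all 266 miRNAs 111 were positive and the median was -0.31. miR-18b-5p was listed at 0 in SAT 1, 2, 3 and 5 and in VAT 4 (-4.47 ± 1.47, edgeR adjusted p = 0.082). miR-17-5p held 80.1, 86.5, 56.8, 94.4 and 87.3 CPM in SAT 1 to 5 and 127, 127.8, 15.1 and 172 CPM in VAT 1, 3, 4 and 5. VAT 4 was far below all other libraries, and the difference moved from -0.45 ± 0.57 (adjusted p = 0.66) to -0.81 without it (adjusted p = 0.041). miR-20a-5p (-0.78, adjusted p = 0.027) and miR-18b-5p (-4.88, adjusted p = 0.016) were also called lower in SAT without VAT 4. In that fit 30 of all 266 miRNAs were called lower. In contrast, miR-92a-3p and miR-25-3p were higher in VAT 4 (11599 and 8192 CPM) than in any other library and were not called (-0.62 ± 0.55 and -1.04 ± 0.63, adjusted p = 0.53 and 0.37). miR-92a-3p held 2217 to 4112 CPM in SAT and 2117 to 2347 CPM in VAT 1, 3 and 5. For miR-25-3p these ranges were 1107 to 1706 CPM and 1076 to 1278 CPM, so VAT 4 alone lay above the SAT range for both.

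The cluster of miR-23, miR-24 and miR-27 had 8 of 12 members positive, 1 called higher (6.39% over all 266 miRNAs) and a median of 0.29. Without VAT 4, where 23.3% of all miRNAs were called in either direction and 32 of 266 higher, 5 were called higher. Among them was miR-23b-3p, which moved from 1.11 ± 0.60 (edgeR adjusted p = 0.3) to 2.07 (adjusted p = 0.0058). The 5 include near-identical entries of miR-23a, and with near-identical entries joined 9 of the 12 members were left. None was called of 9 members of miR-15 and miR-16 (median -0.49), 3 of miR-181 (median -0.25), 3 of miR-26 (median 0.67), 7 of miR-29 (median -0.42) and 8 of miR-130, miR-301 and miR-454 (median -0.60). The median of miR-29 was positive in limma (0.13). The 3 miR-26 members were positive, led by miR-26d-5p (1.37 ± 0.59, adjusted p = 0.19), and miR-15c-5p was -1.11 ± 0.39 (adjusted p = 0.098). miR-181c-5p was -0.89 ± 0.38 (adjusted p = 0.18), with VAT 5 the highest at 1907 CPM. In miR-29, whose family acts on collagen and insulin signalling in mammals, miR-29a-3p was -0.66 ± 1.14 (adjusted p = 0.75) and was listed at 0 in VAT 1. Members of 1 family share a precursor cluster or near-identical sequence and are not independent of each other.

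**Figure D3:**
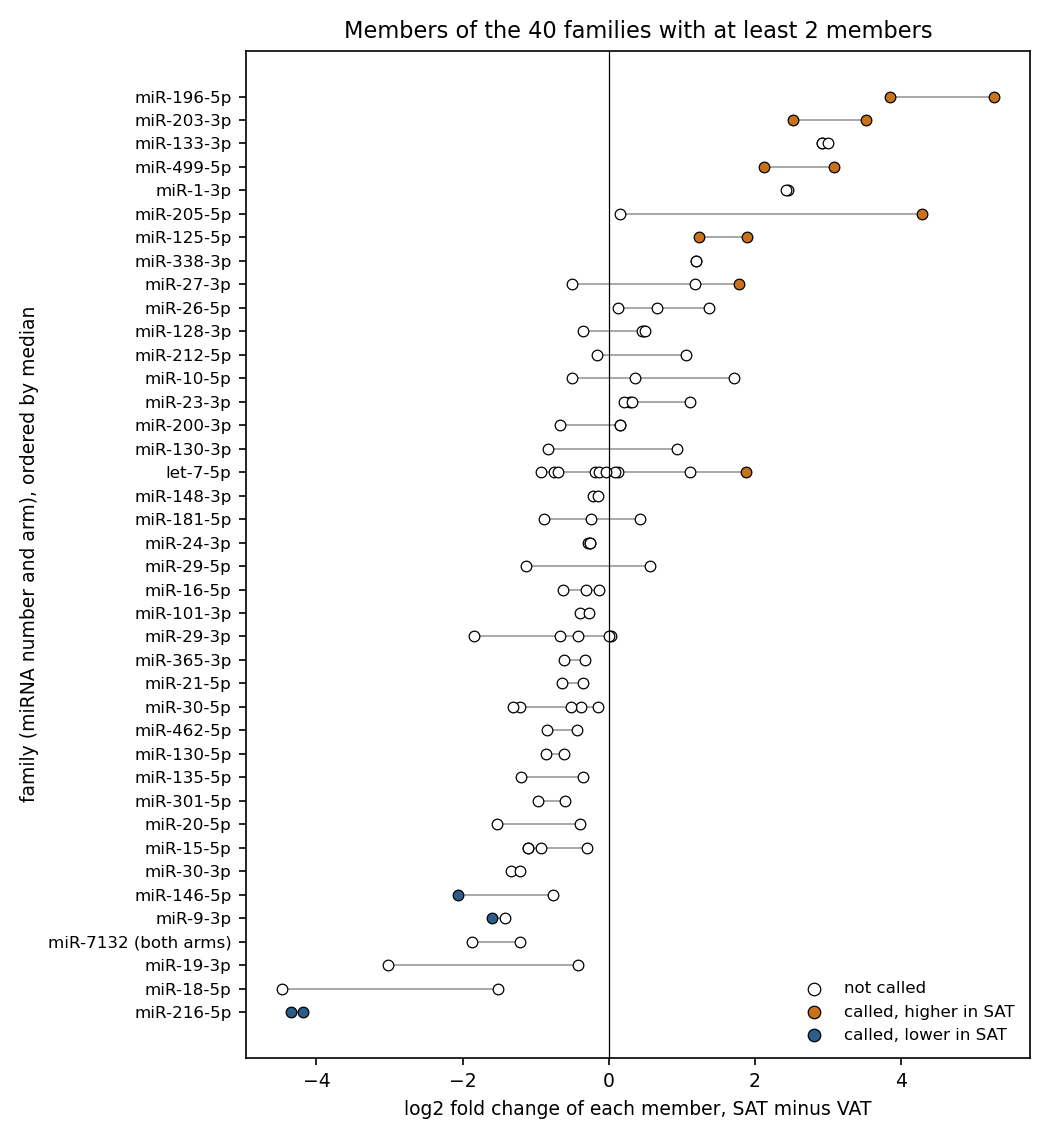
Log2 fold change (SAT minus VAT) of each member, as a point, in the 40 families of named miRNAs (same number and arm) with at least 2 members, ordered by the family median. In 30 families all members have 1 sign. No family holds called members of opposite direction, which only families with at least 2 called members could show.

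Within the 40 families with at least 2 distinct members, 30 had members of 1 sign and 10 had at least 1 call. Families of 2 can share a sign by chance, and no baseline was computed. Only miR-125-5p, miR-196-5p, miR-203-3p, miR-216-5p and miR-499-5p had more than 1 called member. Opposite calls were possible only in these, and none had them. Near-identical copies fall into 1 family, and such members can share reads. Reads were also summed per family and arm and tested the same way over 123 families. Of these 28 (22.8%) were called, 8 (6.5%) higher and 20 (16.3%) lower in SAT, and 42 had an unadjusted p under 0.05. With library totals the split was 13 higher and 11 lower. Leaving out 1 library gave 17 calls at the fewest (without SAT 2) and 48 at the most (without VAT 4). Of the 28, 20 families have a single member, and TMM scaling over families shifted the log2 fold changes of the 83 single-member families by a median of -0.21 against scaling over miRNAs.

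Among the family sums called, the 6 with the largest change upward in SAT were those of miR-204-5p (5.21 ± 0.68, edgeR adjusted p = 0.00042), miR-196-5p (4.30 ± 0.51, adjusted p = 0.00021), miR-99-5p (3.21 ± 0.28, adjusted p = 5.2e-05), miR-203-3p (2.54 ± 0.44, adjusted p = 0.0038), miR-725-3p (2.07 ± 0.44, adjusted p = 0.0091) and miR-499-5p (1.96 ± 0.58, adjusted p = 0.034). Of these miR-499-5p was lost without SAT 3, VAT 1 or VAT 5 (adjusted p = 0.0721 to 0.0917). Among the family sums called lower, the largest changes were those of miR-8159-5p (-5.14 ± 0.57, adjusted p = 0.00016), miR-216-5p (-4.66 ± 0.85, adjusted p = 0.0048), miR-122-5p (-4.63 ± 0.48, adjusted p = 0.00013), miR-216-3p (-4.52 ± 1.01, adjusted p = 0.0091) and miR-18-3p (-3.70 ± 1.03, adjusted p = 0.027), beside miR-190-5p, which was at 0 in SAT. The calls of miR-18-3p and miR-190-5p were lost without single libraries (SAT 1, 2, 3 or 5 or VAT 5, adjusted p = 0.0570 to 0.0745, and VAT 1, 3 or 5, adjusted p = 0.0548 to 0.0629).

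The fit of family sums gave 8 calls without a called member, all lower in SAT. They were miR-1338-5p (-2.23 ± 0.54, edgeR adjusted p = 0.014), miR-218-5p (-1.69 ± 0.38, adjusted p = 0.0091), miR-221-5p (-1.19 ± 0.30, adjusted p = 0.016), miR-458-3p (-1.30 ± 0.37, adjusted p = 0.03), miR-155-5p (-2.82 ± 0.82, adjusted p = 0.032), miR-194-5p (-1.80 ± 0.53, adjusted p = 0.032), miR-15-5p (-1.02 ± 0.31, adjusted p = 0.035) and miR-18-3p. Of these miR-1338-5p and miR-218-5p passed without each library in turn. All but miR-15-5p are families with a single member, so nothing was summed for them. Their counts are those of the miRNA fit, under the shifted scaling and an adjustment over 123 families. The call of miR-221-5p was lost without SAT 1, 2, 3 or 5 (adjusted p = 0.0579 to 0.0717) and that of miR-458-3p without any SAT library or VAT 1 or 3 (0.0507 to 0.0888). miR-155-5p was lost without any SAT library or VAT 5 (0.0501 to 0.133), miR-194-5p without any library but VAT 4 (0.0501 to 0.107) and miR-15-5p without any SAT library or VAT 1 or 5 (0.0549 to 0.141). The miR-125-5p sum (1.51 ± 0.33, adjusted p = 0.0091) was lost without SAT 1 or SAT 2 (adjusted p = 0.0519 to 0.0553). The miR-146-5p sum (miR-146a-5p and miR-146d-5p) was lower in SAT, at -2.32 ± 0.50 (edgeR adjusted p = 0.0091). Its level in VAT 4 (89540 CPM) lay within the SAT range (48505 to 105891 CPM), so the depots overlapped.

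Predicted miRNAs held 1.14 ± 0.112% of the merged counts of all entries in SAT and 1.29 ± 0.178% in VAT (two-sided exact permutation test, p = 0.17). Of the 75, 2 were called higher and 3 lower in SAT, against 6.39% and 6.02% over all 266 miRNAs. NovelmiRNA-206 held 6.14 to 15.1 CPM in SAT and was listed at 0 in all 4 VAT libraries. Against a floor of 3 reads over the group it was at least 95.3-fold higher in SAT. It passed the filter through SAT alone, as did NovelmiRNA-277, so these calls and bounds describe entries that the filter selected for being present in SAT. NovelmiRNA-277 was at least 11.9-fold higher by the same floor, with 21 reads over SAT. Its call was lost without SAT 1, 2, 3 or 5 or VAT 1, 3 or 5 (edgeR adjusted p = 0.0653 to 0.112), with totals that omit muscle miRNAs (0.052), in the fit of all 14 libraries (0.051) and in limma. Lower in SAT were NovelmiRNA-62, whose counts are those of NovelmiRNA-268, with 9.98 to 29.8 CPM in SAT and 95.0 to 841 CPM in VAT (-4.43 ± 0.63, adjusted p = 0.0017), and NovelmiRNA-333 (-5.15 ± 1.28, adjusted p = 0.031), which was above 0 in 1 SAT library. The third was NovelmiRNA-260, with the counts of NovelmiRNA-492 (-3.22 ± 0.45, adjusted p = 0.0017). The call of NovelmiRNA-333 was lost without SAT 1, 2, 3 or 5 or VAT 1 or 3 (adjusted p = 0.0548 to 0.0799).

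The ratio of the 5p to the 3p arm was tested for the 6 precursors whose arms were neither identical nor near-identical in counts over the 9 libraries and had a mean of at least 20 reads each (limma on log2 ratios, Benjamini-Hochberg over the 6). None was called (0.0%), and 1 had an unadjusted p under 0.05. This was miR-9a, with a log2 ratio of -5.37 ± 3.98 in SAT (SD, n = 5) and -0.61 ± 1.26 in VAT (n = 4), a difference of -4.76 ± 1.97 (SE, adjusted p = 0.26). Its 5p entry was listed at 0 in SAT 1, 2 and 3, where 3p reads were present. The difference was -0.21 ± 0.30 for miR-199a, 0.26 ± 0.25 for miR-205a, 0.33 ± 0.47 for miR-2188 and -0.08 ± 0.11 for miR-222a (adjusted p = 0.52 each). It was -1.74 ± 1.74 for miR-29a (adjusted p = 0.52), and without VAT 1, where its 3p entry was listed at 0, it was 0.32. Both arms of miR-222a had identical counts in SAT 1 and all VAT libraries, and both arms of miR-29a in 6 of the 9 libraries, so the arm of their reads is uncertain there. The same held for miR-2188 in SAT 5 and VAT 3 and for miR-205a in VAT 4.

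Of the variance between whole profiles, 32.8% lay between the depots (exact permutation test on Euclidean distances of log2(CPM + 1), all assignments of libraries to depots, p = 0.0079, the smallest p they can give). Over the miRNAs outside the muscle list it was 30.4%. The correlation of log2 levels over miRNAs (which share libraries) had a median of 0.938 within SAT (10 pairs), 0.875 within VAT (6 pairs) and 0.861 between the depots (20 pairs). The root mean square log2 distance of a library to the others of its depot was 1.18 to 1.28 in SAT. In VAT it was 1.35 for VAT 1, 1.67 for VAT 3, 2.31 for VAT 4 and 1.64 for VAT 5, and VAT 3 lay as near to SAT (1.66) as to VAT.

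Levels varied more between VAT than between SAT libraries. Over the 118 named miRNAs at a mean of 50 CPM or more, the median SD of log2(CPM + 1) was 0.31 in SAT and 1.00 in VAT, and the VAT value was the larger in 110. Without VAT 4 the median SD in VAT was 0.52 and it was larger than in SAT in 86. These counts are a description over miRNAs of the same libraries and carry no test.

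**Figure D4:**
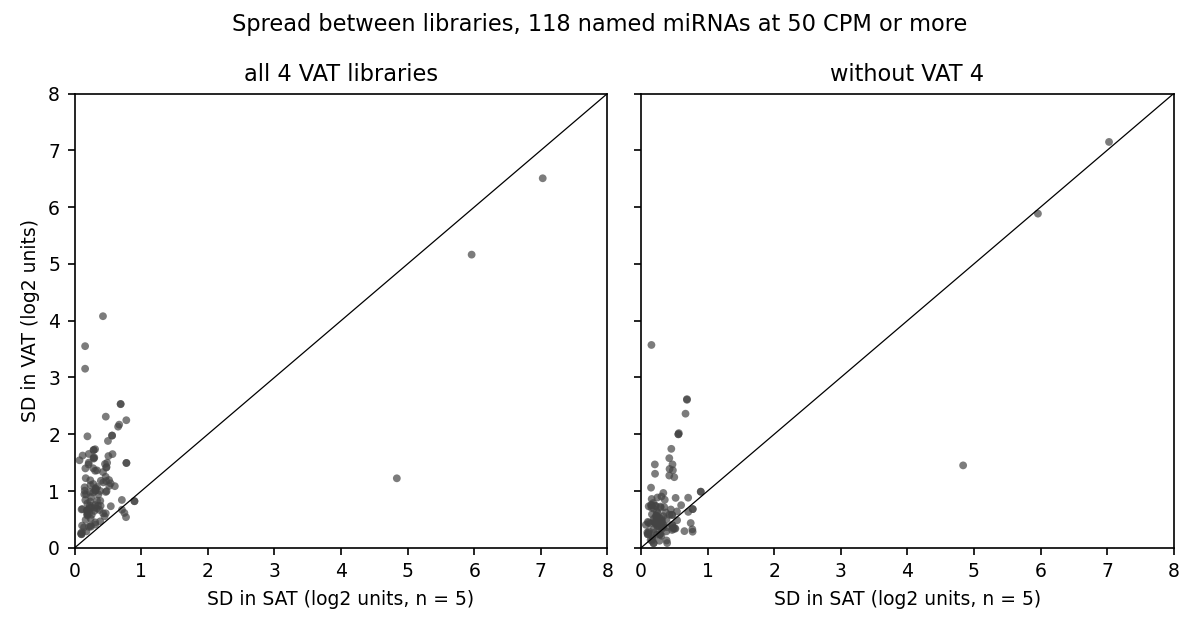
SD over libraries of log2(TMM-scaled CPM + 1) in SAT (n = 5, horizontal) and VAT (vertical) for 118 named miRNAs, with all 4 VAT libraries on the left and without VAT 4 on the right, where the line marks equal spread. On the left 110 points lie above the line and on the right 86, and the few points with an SD of over 4 in SAT are entries listed at 0 in some libraries.

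The most abundant single miRNA took a smaller share of the merged counts of all entries in SAT. It took 14.2, 14.8, 14.8, 12.6 and 13.0% in SAT 1 to 5 (13.9 ± 1.02%) and 43.3, 44.8, 21.8 and 34.2% in VAT 1, 3, 4 and 5 (36.1 ± 10.6%). The depots did not overlap (two-sided exact permutation test, p = 0.0079, adjusted over 5 library values p = 0.013). It was miR-100a-5p in SAT 1 to 4 and VAT 4, miR-21b-5p in SAT 5 and VAT 5, and miR-146a-5p in VAT 1 and VAT 3. The Shannon index over the same merged entries, in natural log units, which rises as counts spread more evenly over miRNAs, was 3.24 ± 0.107 in SAT and 2.61 ± 0.329 in VAT (exact p = 0.0079, adjusted p = 0.013).

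The number of entries above 0 was computed for an equal depth of 1973174 merged counts. It took in all table entries, with identical ones merged only among the entries kept. Any identical entries among those left out each counted on their own, and their part in the difference was not tested. The number was 265 ± 19.1 in SAT and 337 ± 41.8 in VAT, with p = 0.0079 by the same exact test (adjusted p = 0.013). The lowest VAT library, VAT 1 at 294 entries, was close to the highest SAT library, SAT 4 at 289.6 entries. These 3 differences kept their direction and stayed under an adjusted p of 0.05 without each library in turn.

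**Figure D5:**
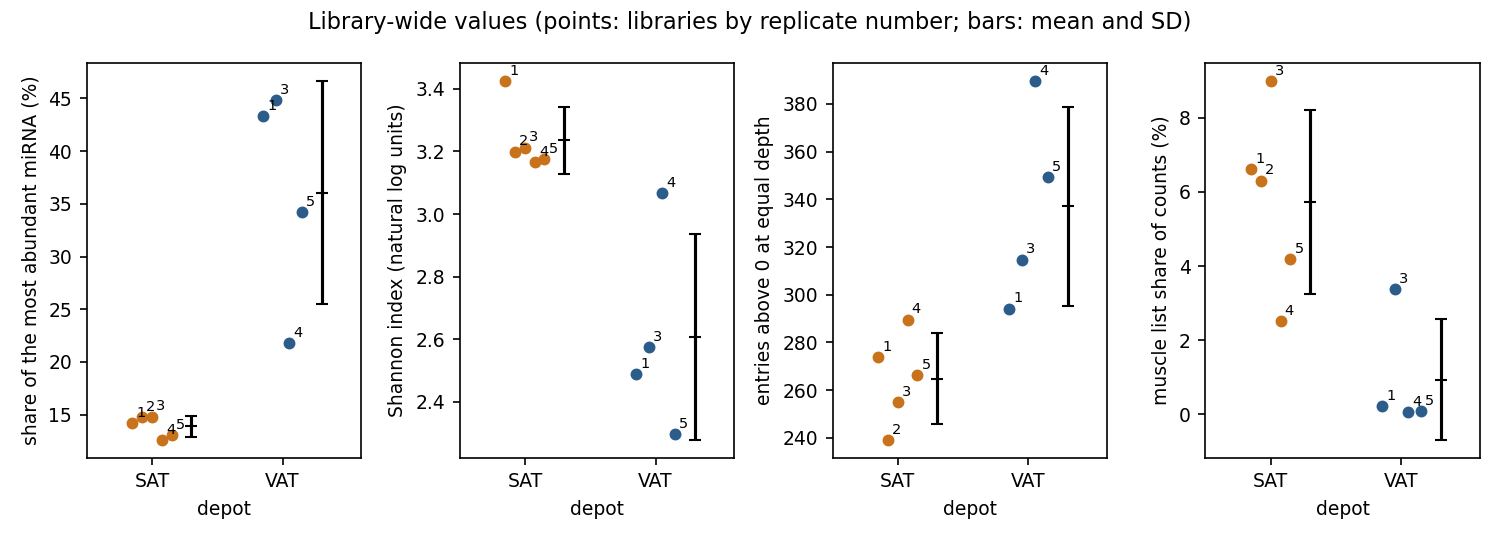
Library-wide values by depot: share of the most abundant miRNA (%), Shannon index (natural log units), entries above 0 at equal depth, and share of counts on the muscle list (%), with points for libraries (replicate number beside each) and bars for the mean and SD (n = 5 SAT, n = 4 VAT). SAT and VAT do not overlap in the first 3 panels, and in the last VAT 3 at 3.37% lies above SAT 4 at 2.51%.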

How the data were processed

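Small RNA libraries of mature adipocytes from 2 fat depots of rainbow trout were analysed. The deposited table holds the authors' raw read counts for each miRNA entry and library. Trimmomatic 0.30 and edgeR 3.4.6 are named in the submitters' processing notes without a role, and the aligner and the build it used are not stated in the labels or file headers (not given in the sources used here). The table also holds a normalised column for each library, which was not used, and 2 value columns of a library without a matching label were left out. Entries above 0 in at least 4 of the 9 SAT and VAT libraries were kept, and those with identical counts were merged. Sequencing depth is the column sum, from 2060776 to 11076843. Members under 50 CPM differed widely in reads, with 34 over VAT for miR-190a-5p and 139 to 266 in each SAT library for miR-196b-5p.

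Counts were scaled by TMM and tested with the quasi-likelihood test of edgeR 4.0.16 in R 4.3.3, with Benjamini-Hochberg adjustment over all members and a threshold of 0.05. Family sums were fitted in the same way, and arm ratios with limma 3.58.1 (0.5 reads added to each arm, a mean of at least 20 reads). Single values per library were compared by two-sided exact permutation tests (scipy 1.17.1). Before use the fits were tested on simulated data. The alternatives were DESeq2 1.42.0, limma on log2(CPM + 1), other scalings and filters, the fit of all 14 libraries, a replicate block and leaving out each library, and 1 (members with zeros beyond counting error left out) was added after seeing the data. Named miRNAs were the most abundant, those called with the largest changes by level, and the members of each list with the largest changes; other list members were chosen after their values were seen. The members and lists were chosen with earlier results of these data known. The sequences of the miRNAs were not used here.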

Additional observations from a re-analysis of the deposited data

Results flagged for a closer look

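In 134 groups of 4 or 5 libraries, 13 values lay farther from the other libraries of their depot than Dixon's 95% limit allows, where chance flags about 1 in 20 groups. Of these 5 were in VAT 4, 4 in SAT 1, 2 in VAT 1 and 1 each in VAT 3 and SAT 5. All levels here are TMM-scaled CPM.

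In VAT 4, let-7c-5p stood at 1429 CPM (363.1 to 435 in the other VAT libraries) and let-7b-5p at 3017 CPM (752 to 926). miR-216a-5p stood at 17.4 CPM there, against 344 to 510.4 CPM. Both entries of miR-30c stood at 10812 CPM, against 836 to 1126 CPM, and share nearly all their counts, so miR-30c-5p and miR-30c-3p are 1 observation.

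In SAT 1, miR-222a-5p and miR-222a-3p stood at 405 CPM (184 to 218.6 and 195.7 to 241 in the other SAT libraries) and miR-199a-3p at 33586 CPM (48005 to 50812). The Shannon index of SAT 1 was 3.43, against 3.17 to 3.21. In SAT 5, miR-181a-5p stood at 2461 CPM, against 1645 to 1806 CPM.

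In VAT 1, miR-192a-5p stood at 344 CPM (169 to 189 in the other VAT libraries) and miR-221-5p at 137 CPM (235 to 247). In VAT 3, miR-365-2-3p was listed at 0, against 3115 to 16054 CPM.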

How the results depend on the processing

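Of the 266 miRNAs 33 were called. The count was 52 (28 higher, 24 lower) in DESeq2, 9 of 731 without a filter, and 38 (27 higher, 11 lower) in limma, where the median over all miRNAs was 0.07. It was 34 with RLE scaling, 31 in the fit of all 14 libraries, 38 of 167 with miRNAs above 0 in all libraries and 43 of 211 with zeros beyond counting error left out. Leaving out 1 library gave 15 to 62 miRNAs called, and 17 to 48 families called against 28 with all libraries. The fit without a filter tests more entries, and its median log2 fold change over them was -1.57. The cause of these shifts in the count was not tested. miR-99-5p, miR-204-5p, miR-196b-5p, miR-8159-5p and miR-122-5p were called in every alternative.

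let-7d-5p turned from -0.74 to 0.85 without VAT 4, and leaving out 1 library gave -1.06 to 0.85. The muscle share differed by 3.66 to 5.54 on the log2 scale without 1 library, and without SAT 1, 2, 3 or 5 (4.12 to 4.40) no longer passed. Over the named miRNAs and alternatives, 1726 results kept their side of the threshold, 189 lost and 50 gained a call. A further 1, let-7d-5p without VAT 4, turned in sign and was called. The 1726 include results that changed sign while not called in either fit.

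With the replicate number as a block, 5 miRNAs and 7 families were called. Same-numbered SAT and VAT libraries did not deviate together (correlations 0.0958, -0.0140, -0.0553 and -0.0307 for numbers 1, 3, 4 and 5). No VAT library correlated best with the SAT library of its own number. The labels do not state whether same-numbered samples came from the same fish. So few correlations cannot decide it, and the main fit assumed no pairing. Depth limits the members that rest on few reads, and the 4 VAT libraries limit the precision of the fold changes.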
